A study of Mus musculus and Homo sapiens with 15 samples.

Results

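The mitochondrially encoded genes were followed through a study of arsenic trioxide (ATO) in tumours and in a human cell line. Every row that the tables place on the mitochondrial chromosome was taken, which gave 37 genes of 52340 in the table of W/W mice, 37 of 56691 in the table of C57 mice and 37 of 61806 in the table of U937 cells. In each table these were 13 protein-coding genes, 2 ribosomal RNA (rRNA) genes and 22 transfer RNA (tRNA) genes. The description rests on the share of a library's counts that fell on these genes, and on the share of each gene within the mitochondrial counts.

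The mitochondrial genome is a small circular DNA that animal cells keep in many copies. Both of its strands are transcribed into long precursors, and tRNAs lying between the other genes mark where the precursors are cut. The mRNAs encode subunits of the respiratory chain and of ATP synthase: the Nd genes belong to complex I (NADH dehydrogenase), Cytb to complex III, the Co genes to complex IV (cytochrome c oxidase) and the Atp genes to ATP synthase. The rRNAs form the core of the mitochondrial ribosome, whose proteins, like the polymerase and the processing enzymes, are encoded in the nucleus.

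W/W mice carry the p53 R282W mutation on both alleles. All 9 W/W libraries were made from the thymus of animals that had T-lymphomas at 150 days of age: 3 were given water, 3 received ATO and are labelled as progressing, and 3 received ATO and are labelled as regressing, so treatment and outcome cannot be told apart when an outcome group is set against water. The 4 C57 libraries came from tumours of a CDX model in C57 mice with the genotype label WT, of which 2 tumours had ATO and 2 had the saline vehicle, labelled PBS. U937 is an established human line of myeloid leukaemia cells. It gave 1 library with PBS and 1 with ATO, both of cells that express the p53 R282W protein. The labels give no dose, duration, sex or batch, and nothing says which libraries came from separate animals, so p-values measure the spread between these samples, which may in part be technical.

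The shallowest and deepest W/W libraries held 12800367 and 17550594 counts. The corresponding totals were 12922147 and 15637644 for C57, and 16454534 and 17872972 for U937. At least 11 of 12 T lymphocyte and thymocyte markers had counts in each W/W library, and 12 of 12 had counts in each C57 library. Their summed level was 1306 to 1721 CPM (counts scaled to a common library size) with water, 4305 to 4781 in the progressing group and 6298 to 12190 in the regressing group. All 10 myeloid markers had counts in both U937 libraries, from 7 (MPO) to 31176 (LYZ) with PBS and from 14 (MPO) to 7781 (LYZ) with ATO. In these bulk samples, fewer cells of a type and less RNA per cell cannot be told apart.

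Sequence copies in the nucleus bear on the counts of several mitochondrial genes, so they are shown first. Each mitochondrial gene was cut into all its windows of 50 bases, and each window was searched for in the annotated nuclear transcripts (GENCODE vM21 for mouse, v44 for human). In mouse, 5 mRNAs were copied almost whole: 100% of the windows of mt-Co2 were found in a nuclear transcript, 99.9% of mt-Co3, 99.5% of mt-Atp6, 98.8% of mt-Nd4l and 98% of mt-Nd3. The mRNAs mt-Nd4 and mt-Co1 were copied in part (62.2% and 51.1% of their windows), and mt-Nd2 and mt-Nd5 to a small extent (8.19% and 7.61%). The copies of the 5 mRNAs copied almost whole are Gm28661, Gm28437, Gm10925, Gm10222 and Gm28438. These copies lie side by side on mouse chromosome 1 (GRCm38, minus strand, chr1:24612407-24615565), in the same order as on the mitochondrial chromosome. In human cells the largest share was 49.5%, for MT-CO1. The first 120 bases of the coding sequence of subunit 2 of cytochrome c oxidase are shown for both species beside the nuclear copy, since they show what a short read can and cannot tell apart. Capitals mark the bases that differ between a gene and its copy.
mt-Co2: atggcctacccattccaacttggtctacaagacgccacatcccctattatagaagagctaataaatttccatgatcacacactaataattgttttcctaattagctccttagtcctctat
Gm28661: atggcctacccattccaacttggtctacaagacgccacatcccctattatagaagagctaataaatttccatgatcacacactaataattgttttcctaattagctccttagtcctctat
MT-CO2: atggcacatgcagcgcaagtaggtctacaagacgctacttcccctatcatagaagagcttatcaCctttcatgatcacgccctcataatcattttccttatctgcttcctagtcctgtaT
MTCO2P12: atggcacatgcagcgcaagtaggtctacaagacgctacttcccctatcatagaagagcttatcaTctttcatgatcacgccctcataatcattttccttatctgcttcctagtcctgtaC
The mouse pair had 0 differing bases in this stretch, and 0 over all 681 aligned bases. The human pair differed at 2 of these 120 bases and at 12 of 684 over the whole gene. How the authors counted reads that align to several places is not given in the sources used here.

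The mRNAs that were copied whole had low counts in both mouse tables. Per kilobase (kb) of gene, mt-Co1 had the highest level in the W/W table, with a median of 174200 counts over 9 libraries (range 86650 to 483200). It was followed by mt-Cytb at 77490 (48560 to 222500) and mt-Nd1 at 62260 (29580 to 157700). The ranges of these neighbours overlapped, as did those of mt-Nd2 (15830 to 121300), mt-Nd4 (13760 to 59290), mt-Nd6 (2501 to 49630) and mt-Nd5 (5106 to 30590). The 5 copied mRNAs had lower medians than these: mt-Co2 ranged from 709.1 to 5537 counts per kb, mt-Atp6 from 214.4 to 2514, mt-Co3 from 225.8 to 1349, mt-Nd3 from 28.74 to 273 and mt-Nd4l from 26.94 to 218.9. Together they held 0.261% to 0.617% of the mitochondrial counts in the W/W libraries and 0.667% to 1.68% in the C57 libraries. In the U937 libraries the same 5 mRNAs held 27.5% (PBS) and 20.6% (ATO), and MT-CO2, at 111900 (PBS) and 92190 (ATO) counts per kb, had the second highest median of the 13 mRNAs. The grouping of these 5 genes was made after their values were seen. The partly copied mt-Co1 and mt-Nd4 had higher medians than the 5 in the W/W table, at 174200 and 22690 counts per kb. The nuclear copies also collected counts: in the W/W table Gm28661 had 213 to 1909 counts, beside 485 to 3787 for mt-Co2. Whether reads of the 5 mouse mRNAs were lost or assigned to the copies was not tested, so their values describe counted reads only.

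**Figure D1:**
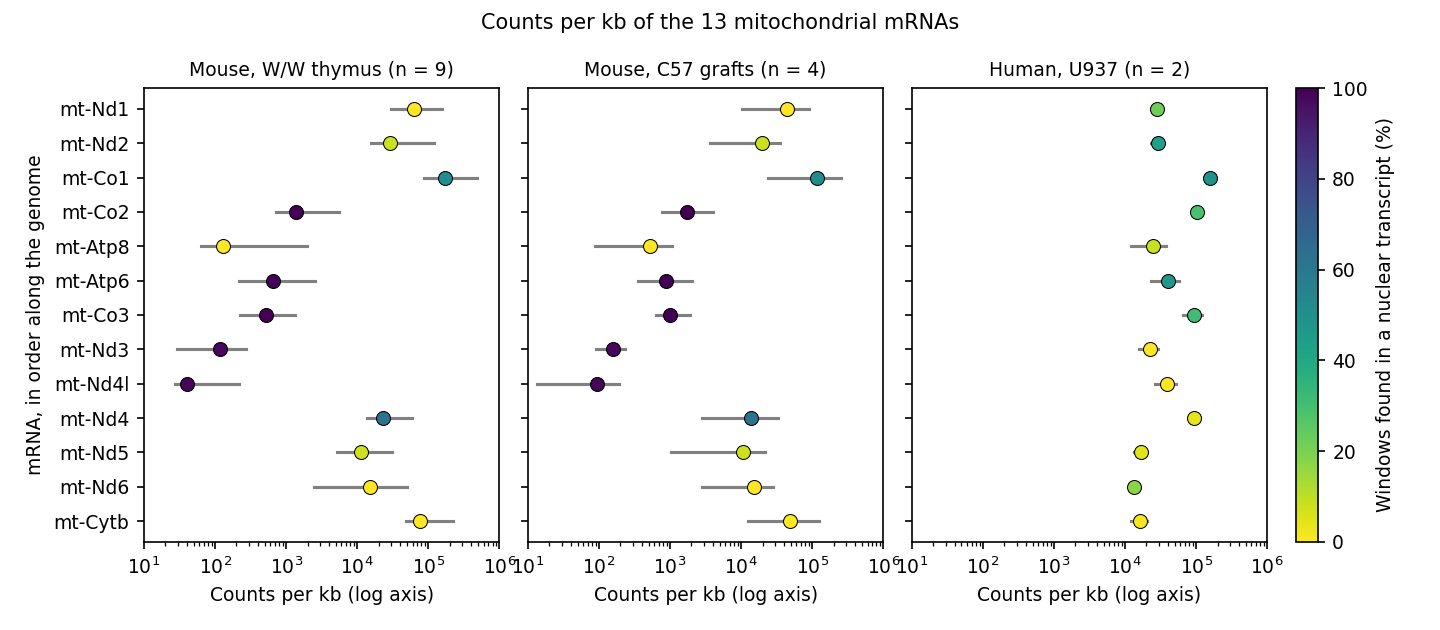
Counts per kb of gene (log axis) of the 13 mitochondrial mRNAs, in their order along the mouse genome, in the W/W, C57 and U937 tables. Points are medians over the 9, 4 or 2 libraries, lines run from the lowest to the highest library, and the colour gives the percent of 50-base windows found in an annotated nuclear transcript, with human genes matched to mouse names. The medians of the copied mRNAs between mt-Co2 and mt-Nd4l lie below those of mt-Nd1, mt-Nd2, mt-Co1, mt-Nd4, mt-Nd5, mt-Nd6 and mt-Cytb in both mouse tables and not in the human table.

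The mRNA of subunit 8 of ATP synthase, mt-Atp8, was low as well, at 63.73 to 1961 counts per kb in the W/W table, although 0 of its 155 windows were found in an annotated nuclear transcript. It occupies positions 7766 to 7969 of the mitochondrial chromosome, between mt-Co2 and mt-Atp6, and shares 43 bases with the mt-Atp6 row. On chromosome 1 the rows of Gm28661 and Gm10925 leave 233 bases between them, where the mitochondrial chromosome has 230 between mt-Co2 and mt-Atp6. What lies in that gap was not analysed here, so whether mt-Atp8 also has an exact nuclear copy was not tested. The annotated mt-Atp8 sequence is shown because it was the mitochondrially encoded gene called in the W/W mice, as described further on.
mt-Atp8: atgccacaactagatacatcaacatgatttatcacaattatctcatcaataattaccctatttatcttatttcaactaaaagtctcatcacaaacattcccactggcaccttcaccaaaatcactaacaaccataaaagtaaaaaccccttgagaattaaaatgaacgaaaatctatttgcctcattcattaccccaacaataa

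The mitochondrial share of the library was higher in each progressing tumour than in each water tumour. It was 2.55%, 3.79% and 2.76% in water replicates 1, 2 and 3 and 4.70%, 8.83% and 4.86% in progressing replicates 1, 2 and 3. The means were 3.03% ± 0.665 (SD, n = 3) and 6.13% ± 2.34 (SD, n = 3), a ratio of 2.02. The groups did not overlap, and the exact two-sided permutation p was 0.1, the smallest that 3 against 3 allows (0.4 after Benjamini-Hochberg adjustment over 20 W/W tests). The regressing tumours held 2.08%, 2.96% and 8.48%, so replicate 1 lay below the water tumours, replicate 2 among them, and replicate 3 near the highest progressing tumour. The difference of the means, 1.48 percentage points, turned to -0.508 without regressing replicate 3. Regressing and water tumours did not differ beyond this spread (exact permutation p = 0.8, adjusted 0.941), nor did all 6 ATO tumours and water (exact permutation p = 0.191, adjusted 0.635).

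Markers of fat cells were highest, within each W/W group, in the library of highest mitochondrial share, but did not follow the share between groups. The summed level of 12 brown and white adipocyte markers was 58.94, 165.7 and 98.1 CPM in water replicates 1 to 3, 134.4, 1385 and 268.2 in the progressing group, and 178.5, 721.7 and 5902 in the regressing group. Progressing replicate 2 and regressing replicate 3 thus had the highest adipocyte sum of their group as well as the highest mitochondrial share. Between groups, regressing replicate 2 had a higher sum than progressing replicate 1 (721.7 against 134.4 CPM) and a lower share (2.96% against 4.70%). Regressing replicate 1 had a higher sum than each water library and a lower share (2.08%). All 12 markers had counts in progressing replicate 2 and in the 3 regressing libraries, while Lep was at 0 in each water library, and Plin1 and Elovl3 were at 0 in water replicates 2 and 3. In edgeR's quasi-likelihood test 4 of 12 were higher in regressing than in water tumours, beside 3.13% of all genes, and a single 1 of 12 in progressing than in water tumours, beside 4.77%, at an adjusted p under 0.05. The part of these cells in the mitochondrial share was not tested.

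In the grafted tumours the share was higher with ATO. It was 0.521% and 1.02% with PBS and 5.98% and 4.03% with ATO. The means were 0.771% ± 0.355 (SD, n = 2) and 5.01% ± 1.38 (SD, n = 2), a ratio of 6.49, and the groups did not overlap. The exact permutation p was 0.333, the smallest that 2 against 2 allows, so the exact test cannot reach 0.05 here. Leaving out any 1 of the 4 libraries gave differences between 3.26 and 5.21 percentage points. In U937 cells the share was 4.81% with PBS (95% Clopper-Pearson interval 4.80 to 4.82) and 4.25% with ATO (4.24 to 4.26). With 1 library per group this difference has no replicate check, and such intervals, here and below, describe the error of counting alone: amplified reads that carry no molecular identifier do not each stand for a separate molecule.

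**Figure D2:**
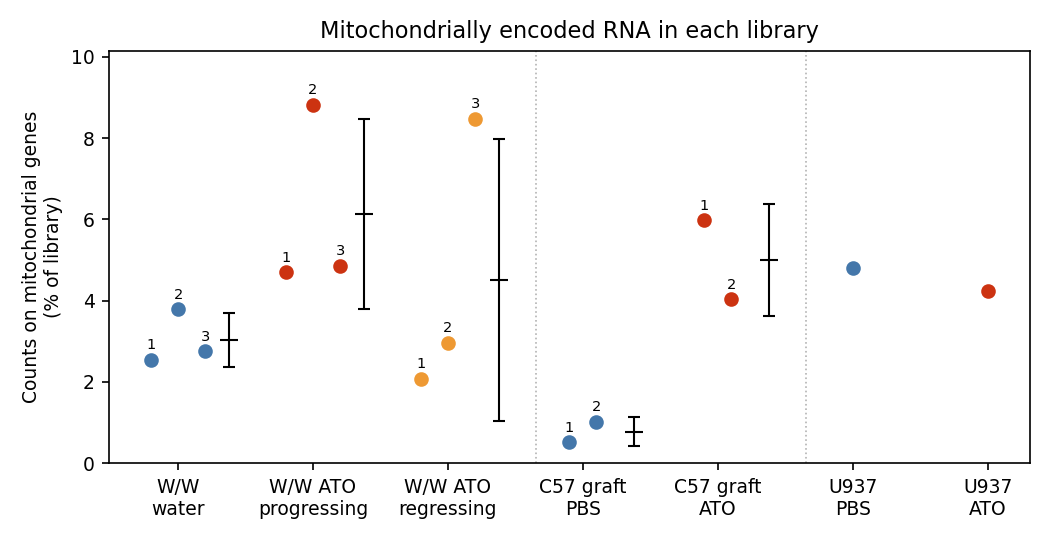
Counts on the 37 mitochondrial genes as a percent of all counts in each library. Each point is a library, with its replicate number, and the black bars give the mean ± SD of a group with at least 2 libraries. Both C57 libraries with ATO (5.98% and 4.03%) lie above both with PBS, and progressing replicate 2 (8.83%) and regressing replicate 3 (8.48%) lie highest.

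Within the mitochondrial counts, mRNAs dominated in every library, and the rRNA share set the regressing tumours apart from the other W/W groups. The mRNAs held 92.8% to 99.2% of mitochondrial counts in the W/W table, 93.6% to 97.3% in the C57 table, and 91.6% and 82.1% in the U937 libraries. The 2 rRNAs, mt-Rnr1 (12S, of the small ribosomal subunit) and mt-Rnr2 (16S, of the large subunit), held 0.962%, 4.49% and 3.35% in water tumours. They held 4.47%, 1.54% and 0.727% in progressing tumours and 7.12%, 6.08% and 4.68% in regressing tumours. The lowest regressing tumour lay above the highest tumour of each other group (4.68% against 4.49% and 4.47%). The exact permutation p was 0.1 for regressing against water and 0.1 for regressing against progressing, the smallest possible (0.4 adjusted), and progressing and water overlapped (p = 0.7, exact).

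On the rRNA shares, the labels name an mRNA library kit together with total RNA and do not say whether rRNA was removed, so the shares describe reads and not the RNA content of cells. As a percent of all counts the rRNAs overlapped between the groups: 0.0245 to 0.170 in water, 0.0353 to 0.210 in progressing and 0.148 to 0.397 in regressing tumours. The summed level of the T lymphocyte markers given above was also highest in the regressing tumours, and its part in the rRNA share was not tested. In the C57 grafts the rRNA share went from 6.17% and 3.72% with PBS to 2.79% and 2.66% with ATO (exact permutation p = 0.333, the smallest possible). In U937 cells it went the other way, from 8.22% with PBS to 17.4% with ATO.

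**Figure D3:**
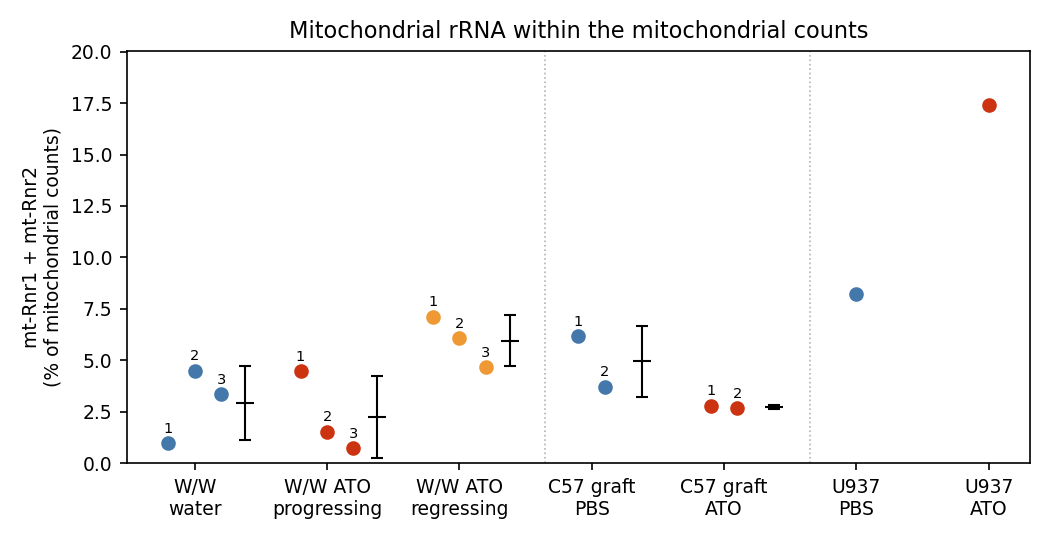
The counts of the 2 mitochondrial rRNAs as a percent of all mitochondrial counts, by library. Points, replicate numbers and mean ± SD bars are as in the plot of the mitochondrial share. The 3 regressing tumours (4.68% to 7.12%) lie above the 6 other W/W tumours (0.727% to 4.49%), and the U937 library with ATO is highest at 17.4%.

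The strand that carries few genes was followed through mt-Nd6 (MT, 13552 to 14070, minus strand), a subunit of complex I and the only mRNA encoded there. It held 1.16%, 2.51% and 1.99% of mitochondrial mRNA counts in water, 3.77%, 1.28% and 0.204% in progressing, and 1.45%, 1.28% and 1.13% in regressing tumours. Progressing replicate 3 was the lowest of all 9 libraries and progressing replicate 1 the highest, so the progressing group covered the range of both others. The same 2 libraries were extreme for mt-Nd5, a neighbouring complex I gene on the other strand, at 7.78% and 1.45% of mitochondrial counts. Whether the counting used the strand of the reads is not given in the sources used here, and the mt-Nd5 and mt-Nd6 rows overlap at their ends. In the C57 grafts mt-Nd6 held 2.02% and 1.74% with PBS and 1.73% and 2.61% with ATO, and in U937 cells 0.995% and 1.12%.

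Of the 22 tRNAs, counts were almost entirely those of mt-Tp, the tRNA for proline, which is encoded on the minus strand next to the control region. In mouse, 19 of 22 tRNAs had 0 counts in all 9 W/W libraries and 20 of 22 in all 4 C57 libraries, and in human 19 of 22 had 0 in both libraries. mt-Tp had 323, 1423 and 444 counts in water, 1279, 1588 and 293 in progressing, and 361, 542 and 3033 in regressing tumours. It had 172 and 147 counts with PBS and 433 and 446 with ATO in the C57 grafts, and 1927 and 3159 in U937 cells. The few other tRNA counts came from mt-Tc (32 in progressing replicate 1, and at most 15 in a C57 library), mt-Tn (1 in progressing replicate 1), MT-TC (10 and 5) and MT-TF (0 and 3). The sequences of the counted tRNA are shown for both species, since it is the sole tRNA with usable values.
mt-Tp: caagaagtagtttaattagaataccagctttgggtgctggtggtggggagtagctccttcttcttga
MT-TP: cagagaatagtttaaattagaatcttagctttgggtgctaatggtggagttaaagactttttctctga
Mature tRNAs are short and carry many modified bases, and libraries of the kind named in the labels are not made to capture them. The reads on mt-Tp were not shown to come from the mature tRNA.

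Gene by gene, the W/W comparisons were tested with edgeR's quasi-likelihood test over the whole table, with Benjamini-Hochberg adjustment. Of the 37 mitochondrial genes, 16 passed the filter on low counts (13 mRNAs, 2 rRNAs and mt-Tp). In progressing against water tumours 1 of the 16, mt-Atp8, was called higher, a share near the 4.77% of the 18119 genes tested. Called lower were 0, beside 7.13%, with 0 lower at an unadjusted p under 0.05, by DESeq2 or by limma-voom. In regressing against water tumours 0 of 16 were called, with edgeR, and 0 of 16 had an unadjusted p under 0.05, beside 3.13% of all genes called higher and 4.57% lower (7.7% in all). DESeq2 and limma-voom also called 0 in that comparison.

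Counts of mt-Atp8 were 13, 19 and 26 in water tumours and 302, 400 and 66 in progressing tumours. They were 13, 26 and 39 in regressing tumours, which lay on the water values. The progressing tumours did not overlap with either group, though replicate 3 lay much closer to them than replicates 1 and 2. The mean level was 1.30 CPM ± 0.406 (SD, n = 3) in water and 19.1 CPM ± 14.5 (SD, n = 3) in progressing tumours, which is a log2 fold change of 3.87 ± 0.796 (SE; adjusted p = 0.0139 in edgeR). Leaving out any of the 6 libraries kept the call, with log2 fold changes from 3.25 to 4.34. Against the progressing tumours, the regressing tumours were lower, with a log2 fold change of -3.45 ± 0.779 (SE; adjusted p = 0.0233 in edgeR). It was the 1 of 16 mitochondrial genes called lower, a share near the 6.18% of all genes. Called higher were 0, beside 6.45%, with 0 higher at an unadjusted p under 0.05, by DESeq2 or by limma-voom. This second call was lost without progressing replicate 2 (adjusted p = 0.0597) or without regressing replicate 1 (0.101), 2 (0.0892) or 3 (0.0577).

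Markers of other cell types moved with the same contrasts. The 8 B cell markers summed to 286.1 to 3221 CPM in water, 4.19 to 34.2 CPM in progressing and 124 to 208.1 CPM in regressing tumours, and Blk and Ms4a1 were at 0 in progressing replicate 1. Of the 8, 7 were lower in progressing than in water tumours (beside 7.13% of all genes) and 3 were higher in regressing than in progressing tumours (beside 6.45%). The 8 thymic epithelium markers summed to 157.3 to 917.1, 41.6 to 102.4 and 1483 to 1692 CPM in the same order, with 5 lower and 6 higher in these comparisons. Other lists moved too. The 6 fibroblast markers had median log2 fold changes of 1.01 (progressing against water, 0 called) and -2.14 (regressing against progressing, 3 lower, beside 6.18% of all genes). Of 12 T lymphocyte and thymocyte markers 5 were higher in progressing than in water tumours, beside 4.77%. The B cell and thymic epithelium sums were lowest in the progressing tumours, where mt-Atp8 was highest. The part of these cell types in its level was not tested.

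The neighbour mt-Atp6, whose annotated row shares 43 bases with that of mt-Atp8, did not pass the test in these comparisons. Whether the 2 rows counted reads of separate RNAs was not tested. Its counts were 192, 730 and 284 in water, 752, 1712 and 450 in progressing and 146, 249 and 556 in regressing tumours, with a log2 fold change of 1.39 ± 0.733 (SE; adjusted p = 0.242 in edgeR) between progressing and water. Per 100 counts of mt-Atp6 there were 6.77, 2.60 and 9.16 of mt-Atp8 in water, 40.2, 23.4 and 14.7 in progressing and 8.90, 10.4 and 7.01 in regressing tumours. The progressing tumours lay above the 6 others in this ratio. Its numerator is the same mt-Atp8 counts that set them apart, so it is no separate observation. In the C57 grafts the ratio was 7.50 and 13.5 with PBS and 15.7 and 18.8 with ATO, and in U937 cells 19.7 and 15.9. As mt-Atp6 is among the genes copied whole in the nucleus, the ratio mixes a gene with an exact copy and a gene with none annotated.

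Of the 16 tested members 15 had positive fold changes against water in the progressing tumours, with wide errors, beside 8789 of all 18119 genes tested. The fitted log2 fold change was 1.14 (SE 0.728, adjusted p = 0.333) for mt-Co1, the catalytic subunit of cytochrome c oxidase. It was 1.18 (SE 0.664, adjusted p = 0.270) for mt-Cytb, 0.53 (SE 0.656, adjusted p = 0.643) for mt-Nd1, and 0.64 (SE 0.875, adjusted p = 0.682) for mt-Nd6. The rRNAs mt-Rnr1 and mt-Rnr2 had values of -0.04 (SE 0.783) and 0.49 (SE 0.833), and the sign for mt-Rnr1 turned positive under each other scaling tried. Counts of mt-Cytb were 80180, 88652 and 68514 in water and 114643, 254504 and 110980 in progressing tumours. Only mt-Cytb and mt-Atp8 had groups that did not overlap in CPM. The share of all genes without overlap was not counted, so no weight rests on this. The median over the 13 mRNAs was 0.97, beside -0.04 over all genes tested.

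In the regressing tumours the mRNAs went in both directions. Fitted log2 fold changes against water ran from -0.64 for mt-Co3 to 1.10 for mt-Nd2, with a median of 0.13 beside -0.11 over all genes. For mt-Co1 the value was 0.08 (SE 0.719, edgeR adjusted p = 0.950), for mt-Cytb 0.64 (SE 0.658, adjusted p = 0.554), for mt-Nd1 0.13 (SE 0.654, adjusted p = 0.911) and for mt-Nd6 -0.46 (SE 0.873, adjusted p = 0.762). The rRNAs had the values 0.92 for mt-Rnr1 (SE 0.790, adjusted p = 0.472) and 1.06 for mt-Rnr2 (SE 0.840, adjusted p = 0.434). Both comparisons share the water tumours. With all 6 ATO tumours against water 0 of 16 members were called by edgeR, beside 3.57% of all genes called higher and 7.3% lower, 1 was called by DESeq2, 0 by limma-voom, and 1 at an unadjusted p under 0.05 (mt-Atp8, 2.14 ± 0.694 on the log2 scale, SE; adjusted p = 0.0724 in edgeR).

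In the C57 grafts nearly the whole set of tested mitochondrial genes rose with ATO. Of 16 tested, 15 were called higher, beside 7.37% of the 15468 genes tested, and 0 lower, beside 6.57%, with 0 lower at an unadjusted p under 0.05, by DESeq2 or by limma-voom. The median log2 fold change over the 13 mRNAs was 2.52, beside 0.04 over all genes. The called genes include mt-Nd4l, which passed the filter on low counts through its ATO libraries alone. Scaling on the nuclear genes alone left 15 called. Leaving out any 1 of the 4 libraries also gave 15 calls, with medians from 2.18 to 3.10, but each such fit leaves a group with 1 library, which is assumed to vary like the other group.

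The abundant mRNAs rose together. Counts of mt-Co1 were 36721 and 83098 with PBS and 387014 and 277120 with ATO, a log2 fold change of 2.50 ± 0.365 (SE; adjusted p = 0.00476 in edgeR). Counts of mt-Cytb, the single mitochondrially encoded subunit of complex III, were 14435 and 26394 against 143763 and 84933 (2.52, SE 0.348, adjusted p = 0.00376). Among the complex I subunits, mt-Nd1 went from 9681 and 16645 to 87345 and 67637 (2.58, SE 0.293), mt-Nd6 from 1474 and 2678 to 13014 and 14345 (2.73, SE 0.265) and mt-Nd5 from 1904 and 6533 to 32425 and 39841 (3.12, SE 0.427). In each of these genes both ATO libraries lay above both PBS libraries. The share of all genes with such a separation was not counted.

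The rRNAs rose less. Counts of mt-Rnr1 went from 2125 and 2732 to 7495 and 6734 (1.56 ± 0.214 on the log2 scale, SE; adjusted p = 0.00376 in edgeR), and those of mt-Rnr2 from 2699 and 3214 to 14047 and 8289 (1.94, SE 0.284, adjusted p = 0.00485). The tRNA mt-Tp rose by 1.45 (SE 0.286, adjusted p = 0.0123). The difference in rise between rRNAs and mRNAs is the lower rRNA share given above and was not tested beyond it.

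Among the mRNAs copied whole in the nucleus, mt-Co2 rose by 1.91, mt-Atp6 by 2.15, mt-Co3 by 1.38 and mt-Nd4l, with 4 and 5 counts against 57 and 51, by 3.55 on the log2 scale. As mt-Nd4l passed the filter on low counts only through the ATO libraries, its value adds no support for a rise. The exception of the 16 was mt-Nd3, a complex I subunit, with 49 and 32 counts with PBS and 82 and 61 with ATO (0.81 ± 0.476 on the log2 scale, SE; adjusted p = 0.262 in edgeR). Outside the copied group, mt-Atp8 rose from 18 and 38 to 215 and 174 counts (2.81, SE 0.455, adjusted p = 0.00692). Of the annotated nuclear copies, 6 were followed: Gm10925, Gm28437, Gm28438, Gm28439, Gm28661 and Gm29216. Gm10222 and other copies that the window search found were not in this list. Called higher were 6 of 6, beside 7.37% of all genes tested, with a median log2 fold change of 2.05. For example, Gm10925, the copy of mt-Atp6, had 13.6 CPM ± 3.37 (SD, n = 2) with PBS and 67.7 CPM ± 24.4 (SD, n = 2) with ATO. Adding these 6 copies to the mitochondrial counts moved the share of the library to 0.528% and 1.03% with PBS and 6.02% and 4.06% with ATO.

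**Figure D4:**
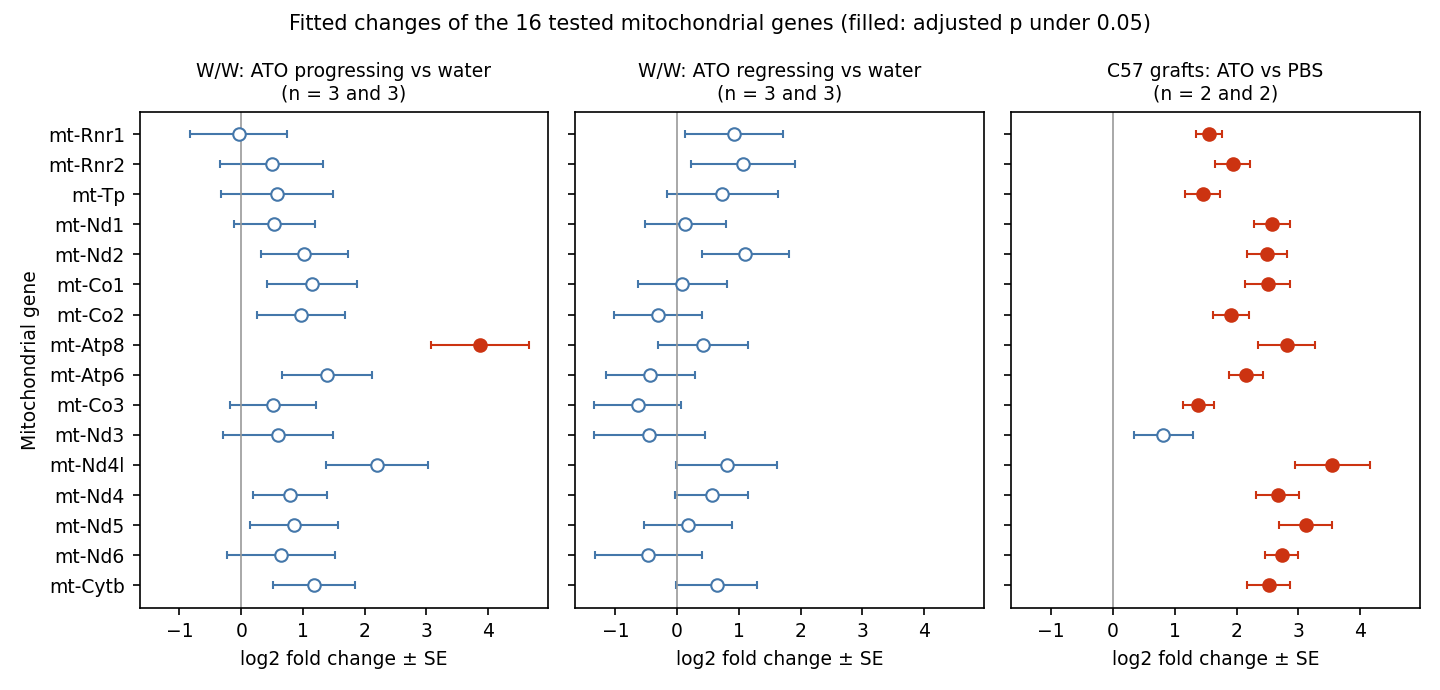
Log2 fold changes from edgeR of the 16 tested mitochondrial genes, ± SE derived from the F statistic. The panels are progressing and regressing W/W tumours against water and C57 grafts with ATO against PBS. Filled red points have an adjusted p under 0.05 and open blue points do not. In the C57 panel 15 of 16 are filled, in the progressing panel mt-Atp8 alone, and in the regressing panel none.

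Markers of other cell types also differed between the C57 groups. Of 16 striated muscle markers, whose fibres are rich in mitochondria, 15 were tested and 5 were higher with ATO, beside 7.37% of all genes. Their summed level was 291.7 and 50.41 CPM with PBS and 483.1 and 493.3 CPM with ATO, and Myh7 was at 0 with PBS. The 6 cardiac muscle markers summed to 2.62 and 3.22 CPM with PBS and 11.06 and 48.27 CPM with ATO, with Myh6 and Myl7 at 0 in all 4 libraries. The 6 fibroblast markers summed to 469 and 212.3 CPM with PBS and 601.6 and 1627 CPM with ATO (4 higher), and the 8 macrophage markers to 906.4 and 683 against 401.7 and 347.1 CPM (4 lower, beside 6.57% of all genes). The 12 adipocyte markers summed to 87.14 and 120.7 CPM with PBS and 81.36 and 58.13 CPM with ATO. PBS replicate 1 had the higher striated muscle sum of the PBS pair and the lower mitochondrial share. The part of these cells in the mitochondrial counts was not tested.

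In U937 cells with p53 R282W most mRNAs took a smaller share of the library with ATO and both rRNAs a larger one, in a single pair of libraries. The ratio of ATO to PBS was below 1 for 12 of the 13 mRNAs, beside 5907 of the 13722 genes compared. Of 16 mitochondrial genes compared, 2 were past 2-fold lower, a share near the 10.1% of the 13722 genes compared. Past 2-fold higher were 0, beside 19.0%. The 2 were the subunits of ATP synthase: MT-ATP8, with 7703 and 2507 counts (ratio 0.354, 95% interval 0.338 to 0.370), and MT-ATP6, with 39023 and 15741 (0.438, 0.430 to 0.446). Just short of a 2-fold drop were MT-ND4L at 0.551, MT-ND3 at 0.579 and MT-CO3 at 0.591. Near 1 were MT-CO1 (260379 and 224392 counts, ratio 0.936), MT-CO2 at 0.895 and MT-ND6 at 0.889, and MT-ND1 was the one mRNA above it, at 1.09 (1.07 to 1.11).

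The ratios of the human rRNAs were unequal. MT-RNR2 had 64066 counts with PBS and 113350 with ATO (ratio 1.92, 1.903 to 1.941), and MT-RNR1 had 6620 and 8475 (1.39, 1.35 to 1.44). MT-TP had a ratio of 1.78 (1.68 to 1.89). The human 16S rRNA thus had 9.68 and 13.4 counts per count of the 12S rRNA, while in mouse this ratio lay between 0.895 and 2.37 in the W/W libraries and between 1.18 and 1.87 in the C57 libraries. Of 7 annotated nuclear copies followed, MTATP6P1 had the most counts, 5054 with PBS and 2094 with ATO, followed by MTND2P28 with 1266 and 814. Other copies that the window search found, such as MTND4P12 and MTND5P11, were not among them. The median log2 ratio of the 13 mRNAs was -0.49, beside 0.14 over all genes compared. With 1 library per group, these are differences between libraries and carry no test of the treatment.

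**Figure D5:**
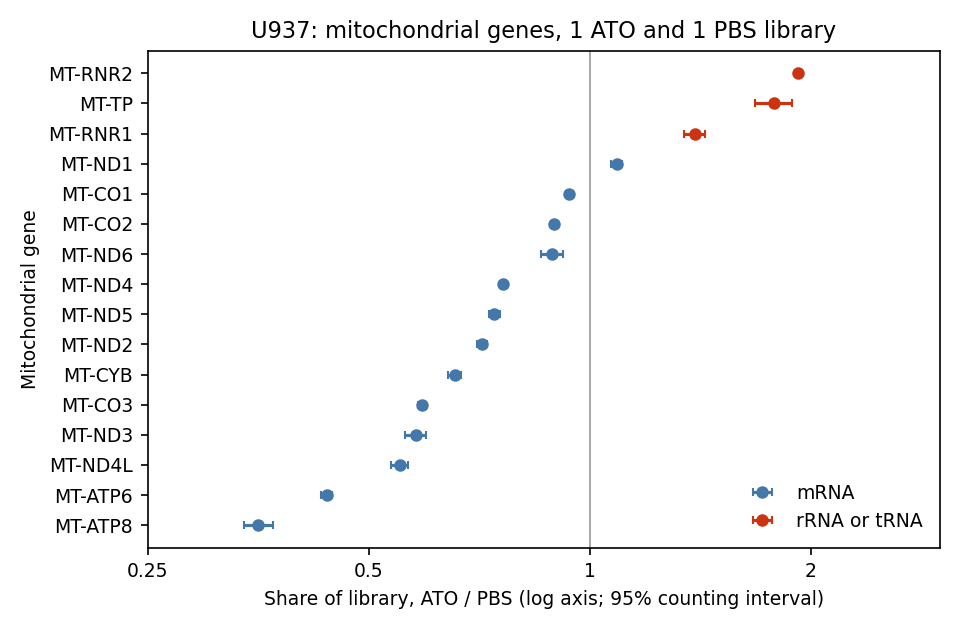
Ratio of a gene's share of the library with ATO to that with PBS (log axis) for the 16 mitochondrial genes with more than 100 counts in U937 cells, with 95% counting intervals. MT-ATP8 (0.354) and MT-ATP6 (0.438) are lowest, and the 2 rRNAs and MT-TP, in red, lie above every mRNA.

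The nuclear partners of the mitochondrial genome were counted next, in lists written from general knowledge. In the C57 grafts many of them were lower where the mitochondrial genes were higher. Of 78 mitochondrial ribosomal proteins 40 were lower with ATO (median log2 fold change -0.70), and of 84 tested nuclear-encoded subunits of the respiratory chain and ATP synthase 54 were lower (median -0.81), beside 6.57% of all genes tested. In neither list was a member higher by edgeR (0), by DESeq2 (0), by limma-voom (0) or at an unadjusted p under 0.05 (0). Examples are Mrpl11 and Mrpl28, proteins of the large mitochondrial ribosomal subunit (log2 fold changes -1.52 and -1.39, edgeR adjusted p = 0.00376 and 0.00431). Ndufa11, of complex I, fell from 131 CPM ± 0.394 to 47.9 CPM ± 0.789 (SD, n = 2 each), and Atp5mpl, a small subunit of ATP synthase, from 364.4 CPM ± 54.9 to 121.7 CPM ± 20.2. Without PBS replicate 1 the counts lower were 7 and 23, and with scaling by library size alone they were 17 and 37, with the median of all genes moved from 0.04 to 0.23.

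Few factors that act on mitochondrial nucleic acids passed the test in the grafts. By edgeR 0 of 9 transcription genes and 0 of 11 DNA maintenance genes passed the test, as by DESeq2 (0 and 0) and limma-voom (0 and 0), while 2 and 1 had an unadjusted p under 0.05. Among the called genes, Hsd17b10, a subunit of the enzyme that cuts tRNA 5′ ends from the precursor, fell by 0.79 ± 0.220 on the log2 scale (SE; adjusted p = 0.0371 in edgeR). Slirp, a partner in keeping mitochondrial mRNAs stable, fell by 0.81 (SE 0.238, adjusted p = 0.0447), and Tufm, the mitochondrial elongation factor Tu, fell by 1.03 (SE 0.231, adjusted p = 0.0181). These were 1 of 18 processing, 1 of 14 stability and 1 of 11 translation genes, shares near the 6.57% of all genes called lower.

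In the W/W mice the nuclear list medians were mostly below 0 in the regressing tumours, and few members passed the test. Against water, 10 of 78 ribosomal proteins and 4 of 18 RNA processing genes were lower, beside 4.57% of all genes, with medians of -1.21 and -0.78. Pus1, a pseudouridine synthase, went from 84.1 CPM ± 27.8 to 18.5 CPM ± 5.65 (SD, n = 3 each; log2 fold change -2.18, edgeR adjusted p = 0.0165). Nsun2, a cytosine methyltransferase of tRNAs, had -1.92 (adjusted p = 0.028). Of the DNA maintenance genes, Polg, the catalytic subunit of the mitochondrial DNA polymerase, was higher (1.31, adjusted p = 0.0420), and Top1mt, the mitochondrial topoisomerase, was lower (-2.62, adjusted p = 0.0176). Each was the 1 of 11 called in its direction, beside 3.13% of all genes higher and 4.57% lower. Tbrg4 and Fastkd2, of a family that acts on mitochondrial RNA, were lower too, Tbrg4 at -1.37 on the log2 scale (adjusted p = 0.0267) and Fastkd2 at -1.64 (adjusted p = 0.0315). They were the 2 of 14 stability genes called lower, beside 4.57% of all genes. The ribosomal protein count was 0 without water replicate 2, regressing replicate 1 or regressing replicate 2, and 1 without regressing replicate 3.

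Between progressing and water tumours 0 of 78 ribosomal proteins were called by edgeR or limma-voom and 2, both lower, by DESeq2, and 7 were lower at an unadjusted p under 0.05. Rexo2, an exonuclease that clears short RNAs in mitochondria, fell from 145.0 CPM ± 24.3 to 36.5 CPM ± 12.7 (SD, n = 3 each; log2 fold change -1.99, edgeR adjusted p = 0.0105). It was the 1 of 14 stability genes called, a share near the 7.13% of all genes called lower. Cox6b2, a testis isoform of a cytochrome c oxidase subunit, was higher (4.19, adjusted p = 0.00943), from 3.37 CPM ± 3.70 to 62.0 CPM ± 3.85. It was the 1 of 85 tested nuclear subunits called higher, below the 4.77% of all genes. Regressing against progressing tumours, 6 of 78 ribosomal proteins were lower, a share near the 6.18% of all genes called lower. Among them were Mrps22 (-1.29, adjusted p = 0.0348) and Mrpl11 (-1.79, adjusted p = 0.0362). The count of 6 became 0 when progressing replicate 2 or 3, or any 1 regressing library, was left out. Elac2, which cuts tRNA 3′ ends, and Pnpt1, a polynucleotide phosphorylase, were lower as well (-1.76 and -1.23, adjusted p = 0.0247 and 0.0244). Called lower were 2 of 18 processing genes, 1 of 14 stability genes and 1 of 85 nuclear subunits, beside the same 6.18%. In U937 cells 8 of 77 ribosomal proteins and 3 of 83 nuclear subunits were past 2-fold lower, beside 10.1% of all genes compared, and 1 and 2 past 2-fold higher, beside 19.0%. The count of 8 of 77 is near that share and the others lie below it.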

How the data were processed

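RNA sequencing of 15 libraries was deposited as 3 tables. For each gene the authors deposited unnormalized read counts and FPKM values; the latter equal the counts over exonic gene size and over a library total. The submitters' processing notes name FastQC 0.10.1, cutadapt 1.9.1 and HISAT2 2.0.1 with GRCm38 and mm10 for all samples. How reads were counted, with or without strand, and what became of multiply aligned reads is not given in the sources used here. The FPKM totals exceeded the summed counts by 0.106% to 2.33% in the W/W table. Per the labels' protocols an mRNA library kit was used, beside a culture passage that does not describe tissue.

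Groups came from the sample labels. The mitochondrial rows had the same positions in both mouse tables (W/W: GRCm38). Counts were fitted with edgeR 4.0.16 (R 4.3.3; filterByExpr, TMM, quasi-likelihood test, Benjamini-Hochberg adjusted p under 0.05), the 9 W/W libraries as 3 groups and the 4 C57 libraries alone, and the script was tested on simulated data. The SE of an edgeR log2 fold change is its absolute value divided by the square root of the test's F statistic. CPM uses TMM-scaled library sizes. Single shares were compared with exact two-sided permutation tests (scipy 1.17.1), adjusted over 20 W/W and 5 C57 tests. U937 ratios are of library shares, restricted to genes whose mean reached 1 CPM, with 95% counting intervals. Copies were searched with exact 50-base windows and blastn 2.17.0. Sequences are from GENCODE. Alternatives used DESeq2 1.42.0, limma 3.58.1, other scalings, no filter, a replicate block and left-out libraries. The samples were not treated as paired by number. Same-number correlations of deviations ran from -0.124 to 0.136 in the W/W table, beside -0.165 to 0.175 for the other pairs. In the C57 table they were -0.13, beside 0.13. With 2 libraries per group these values mirror each other, so they cannot exclude a pairing.

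All 13 mRNAs and both rRNAs were to be named, with fold changes for mt-Rnr1, mt-Rnr2, mt-Co1, mt-Cytb, mt-Nd1, mt-Nd6 and up to 5 further called members, the 5 tRNAs with most counts, and up to 2 called genes per direction from each nuclear list. The members and lists were chosen with earlier results of these data known. Number of sample columns left unused: 0.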

Additional observations from a re-analysis of the deposited data

Results flagged for a closer look

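The level of mt-Atp8 differed between the regressing and the progressing tumours, all of which received ATO. It was the 1 of 16 mitochondrial genes called lower there, a share near the 6.18% of all genes. The log2 fold change between regressing and progressing tumours, which is the difference of their changes from the same water tumours, was -3.45 (edgeR adjusted p = 0.0233), and 3 of 3 regressing tumours lay below 3 of 3 progressing tumours. Its lowest and highest adjusted p over 15 alternatives were 4.2e-05 and 0.101. The call was lost in 4 of 6 fits that left out a library: without progressing replicate 2 (adjusted p = 0.0597) or regressing replicate 1 (0.101), 2 (0.0892) or 3 (0.0577).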

How the results depend on the processing

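Counts over whole tables moved most. Regressing against water had 1396 genes called, 3354 with DESeq2, 2689 with no filter and 60 (without regressing replicate 2) to 1190 with 1 library left out. Progressing against water had 2157, 3733 with DESeq2, 3594 with no filter, 882 with only the compared groups and 907 (without progressing replicate 3) to 2557 with 1 library left out. Regressing against progressing had 2289, 4121 with DESeq2, 3621 with no filter, 3645 without both water replicate 2 and progressing replicate 2 (an alternative chosen after seeing the data) and 177 (without regressing replicate 1) to 2000. All ATO tumours against water had 1968, 3470 with DESeq2, 3273 with no filter and 656 (without regressing replicate 2) to 2099; the fit of only the compared groups did not apply there, as it uses all 9 libraries. C57 had 2157, 3274 with no filter and 685 (without PBS replicate 1) to 2420. With library size alone the C57 split was 1800 higher and 520 lower against 1140 and 1017, as the median of all genes moved from 0.04 to 0.23. Regressing against progressing split 1335 and 920 against 1169 and 1120 (median -0.07 to 0.13), and regressing against water 645 and 647 against 568 and 828 (median -0.11 to 0.09).

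With a replicate block the counts were 956, 1405, 1597, 1230 and 1350, in the order above, and no count of mitochondrial genes changed (0, 1, 1, 0 and 15). The main fits did not treat the samples as paired by number. With the C57 numbers crossed, an alternative chosen after seeing the data, 3298 genes were called, 15 of them mitochondrial and higher.

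Mitochondrial genes called higher in C57 were 15 under each alternative but 1 (16 with no filter). In progressing against water 1 became 2 with DESeq2 and with no filter. In regressing against progressing 1 called lower became 3 with no filter and 0 to 1 with 1 library left out (0 without progressing replicate 2 or any regressing library). In all ATO tumours against water 0 called higher became 1 with DESeq2 and with no filter and 0 to 1 with 1 library left out (1 without progressing replicate 3).

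Signs of uncalled single genes turned, and the cause was not tested. In regressing against water, limma-voom gave -0.0677 for mt-Co1 and -0.21 for mt-Nd1, and leaving out 1 library gave -0.65 to 0.68 and -0.84 to 0.56. For mt-Nd6 it was 0.38 without water 2 and progressing 2, and -1.11 to 0.41 with 1 library left out, and for mt-Cytb -0.18 to 1.02. In progressing against water, mt-Rnr1 had 0.0034 with DESeq2, 0.0911 with limma-voom, 0.0035 with RLE size factors, 0.13 with library size, 0.0122 with scaling without mitochondrial genes, 0.0187 with no filter, 0.23 with the replicate block, 0.0052 with only the compared groups, 0.92 without water 2 and progressing 2, and -0.71 to 0.93 with 1 library left out, and mt-Rnr2 had -0.0034 to 1.70. In regressing against progressing, mt-Cytb had 0.18 without water 2 and progressing 2 and -1.37 to 0.17 with 1 library left out, and mt-Nd1 -1.41 to 0.0089. In all ATO tumours against water, mt-Nd6 had -0.16 with limma-voom and -0.28 to 0.93 with 1 library left out, mt-Rnr1 -0.0313 to 1.44 and mt-Nd1 -0.13 to 0.73.

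The regressing-water difference in mitochondrial share ran from -0.508 to 2.69 points with 1 library left out. As a percent of all counts, differences within the mitochondrial set became 1.33 (regressing against water, mRNAs, -3.06 of mitochondrial counts), 0.0313 (progressing against water, rRNAs, -0.690), 2.20 (all ATO against water, mRNAs, -1.17) and 0.102 (C57, rRNAs, -2.23), a change the other denominator makes by construction. With 1 library left out, the progressing-water rRNA difference ran from -1.80 to 0.0887 and the mRNA difference from -0.105 to 1.86. The U937 share difference was -0.567 points, and -0.622 with off-mitochondrial counts as denominator. Depth limits mt-Nd4l, mt-Nd3 and mt-Atp8 most, each with under 50 counts in several libraries.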
